A study of Mus musculus with 12 samples.

Results

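The 9 genes Agtr1a, Agtrap, Atp6ap2, Ace, Lnpep, Enpep, Nr3c1, Nr3c2 and Hsd11b1 were followed in RNASeq of mouse splenic T cells, out of 49315 genes in the deposited table of raw counts. They were chosen as members of the angiotensin pathway and as receptors or activating enzymes of glucocorticoid and mineralocorticoid hormones, by matching their Ensembl identifiers to gene symbols, and all 9 were found. T cells came from spleens of 12-week-old male WT or miR-214-/- mice after 14 days of Ang II at 490 ng/kg per day or of vehicle (sham) from an osmotic minipump. Each of the 4 groups (WT sham, WT Ang II, miR-214-/- sham and miR-214-/- Ang II) held 3 mice with 1 library per mouse. The miR-214-/- allele was carried in the whole animal and not in T cells alone, and the cells were purified by removing other cell types with magnetic beads, without a sort.

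The angiotensin system is a cascade in which renin cuts angiotensinogen and angiotensin-converting enzyme then releases Ang II, a peptide that constricts vessels and, through the AT1 receptor, acts on kidney, adrenal gland and immune cells. Aminopeptidases shorten Ang II to further peptides. Glucocorticoids act through a nuclear receptor that is abundant in lymphocytes and restrains T cell activation, while the closely related mineralocorticoid receptor responds to aldosterone, a hormone whose secretion Ang II stimulates.

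The libraries held 21126874 to 29605988 counts each. Levels are given as counts per 1000000 (CPM) after TMM scaling, and a count of 3 in 1 library, the upper limit that a count of 0 allows, corresponded to 0.105 to 0.139 CPM. This limit and the intervals of count ratios cover counting error only. All 8 T cell markers were present in every library, with a summed level of 2163 to 3717 CPM, so the labelled cell type was borne out. Markers of other cells were present too. The red-cell precursor list (8 genes) summed to 267 to 489 CPM in the 6 sham libraries but reached 5127 CPM in WT Ang II replicate 1 and 4330 CPM in miR-214-/- Ang II replicate 2, and the B cell list (5 genes) stood at 272 CPM in WT sham replicate 1 and 357 CPM in miR-214-/- Ang II replicate 2 against 43.8 to 139 CPM elsewhere. Both the Mir214 gene and Dnm3os, the transcript that contains it, were at 0 counts in all libraries except 1 count of Dnm3os in WT Ang II replicate 3, and these mRNA libraries therefore give no check of the genotype.

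miR-214 acts by pairing the seed of its mature strand with 3′ UTRs of mRNAs. The mature miR-214-3p is shown because it is the sequence that the knockout lacks. It lies at chr1:162223438-162223459 on the plus strand (GRCm38.p6, RefSeq), with bases 2 to 8, the seed, in capitals, as follows.
mmu-miR-214-3p: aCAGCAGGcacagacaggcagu

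The complement of that seed, CCTGCTG, was searched on the mRNA strand in the longest annotated 3′ UTR of each gene (GENCODE annotation of GRCm38). It was present in 4 of the 9 members, Agtrap, Ace, Lnpep and Nr3c1, and in 18.8% of the 21521 genes of the table with an annotated 3′ UTR. Those 4 UTRs were 3425, 933, 8342 and 3940 bases long against a median of 926 bases over all genes. None of the 5 sites was followed by the A that would extend it to 8 bases. The sites outside Nr3c1 are shown with flanking bases and with the match in capitals.
Agtrap, chr4:148079895-148079923, minus strand: cacagacccacCCTGCTGtcttggtatga
Ace, chr11:105989032-105989058, plus strand: tgaggtgacCCTGCTGgcaaggccagc
Lnpep, chr17:17529667-17529695, minus strand: gtgaaggccggCCTGCTGctgagttgttt
Lnpep, chr17:17522114-17522142, minus strand: tgttacttataCCTGCTGctggaggaaaa
A match to these letters is a description of the sequence and was not taken as a site of action.

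Per kilobase of exon, the members lay at very different levels. Averaged over the 12 libraries, Nr3c1 (25.9 ± 1.88 CPM per kilobase, SD) and Atp6ap2 (24.6 ± 2.22) were highest, followed by Hsd11b1 (15.7 ± 3.94), Lnpep (14.8 ± 1.75), Agtrap (8.34 ± 0.992), Ace (1.52 ± 0.690), Agtr1a (0.946 ± 0.979), Nr3c2 (0.365 ± 0.0645) and Enpep (0.0210 ± 0.0153). The place of Agtr1a depended on the group, since its mean was below that of Nr3c2 in WT sham (0.172 against 0.361) and above that of Ace in WT Ang II (2.18 against 1.85). The ranges of Nr3c1 and Atp6ap2 overlapped, as did those of Hsd11b1 and Lnpep, of Ace and Agtr1a, and of Agtr1a and Nr3c2. The other neighbours in this order were separated in all 12 libraries. Nr3c1 was higher per kilobase than 93.0% of the 30080 genes with a count, while Agtr1a was higher than 57.3% and Enpep than 19.1%. Agtr1a also varied most, with a highest library 31.1 times its lowest, whereas Atp6ap2 and Nr3c1 varied 1.30-fold and 1.32-fold.

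**Figure D1:**
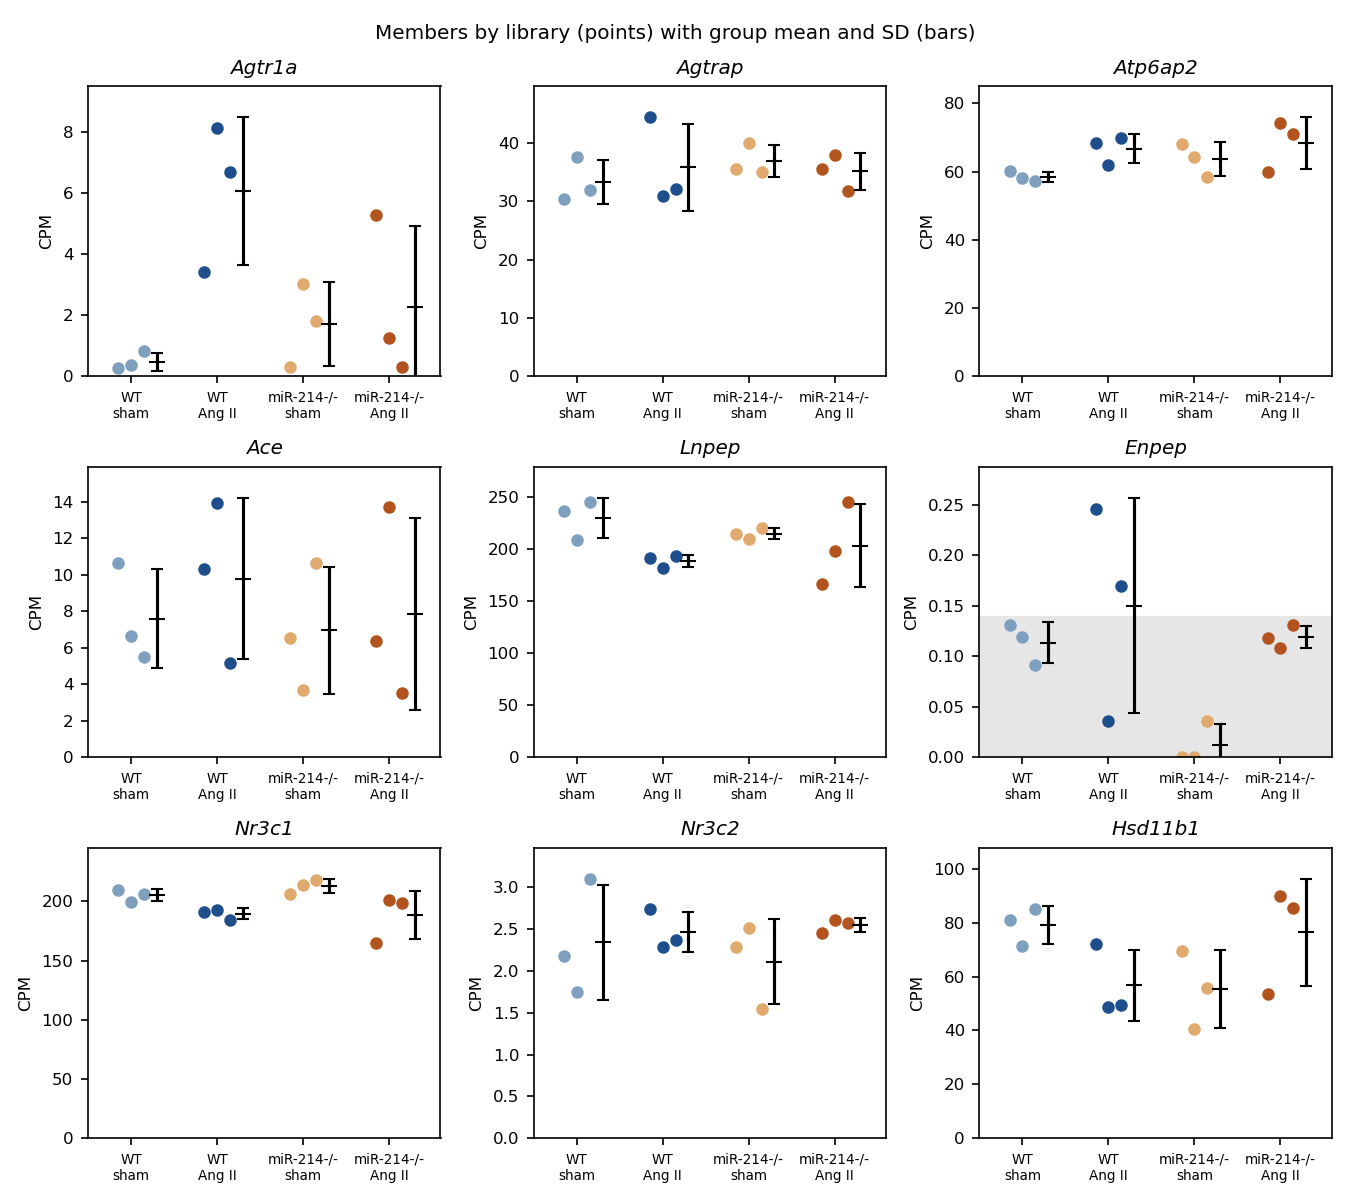
Level of each of the 9 members in CPM (vertical axis, from 0) in the 4 groups, with 1 point per library and the group mean with its SD beside the points; the grey band in the Enpep panel marks levels up to 0.139 CPM, the highest level that 3 counts stand for. Agtr1a in WT Ang II (3.41 to 8.12 CPM) lay above WT sham (0.262 to 0.819 CPM), and Ace and Hsd11b1 overlap between sham and Ang II in both genotypes.

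The effect of Ang II in WT T cells was tested for 8 of the 9 members with edgeR's quasi-likelihood test. Enpep did not pass the filter on low counts. Agtr1a rose (adjusted p = 0.00603) and no other member passed an adjusted p of 0.05, so 1 of 8 members was called beside 18.8% of the 16012 genes tested. On the levels themselves, the groups did not overlap for 4 of 8 members, with Agtr1a and Atp6ap2 higher and Lnpep and Nr3c1 lower under Ang II, beside 40.8% of all genes tested. A share of 4 in 8 is therefore near that of all genes.

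Agtr1a encodes the type 1a angiotensin receptor, the main receptor for Ang II in mice (ENSMUSG00000049115, chr13:30336441-30382867, GRCm38, plus strand). Raw counts were 6, 9 and 18 in WT sham and 97, 228 and 158 in WT Ang II. Every WT Ang II library was above every WT sham library. In miR-214-/- sham the counts were 7, 65 and 51, and in miR-214-/- Ang II they were 134, 35 and 7. These knockout groups overlapped widely, and each held a library as low as WT sham. The mean level was 0.479 ± 0.298 CPM in WT sham, 6.07 ± 2.42 in WT Ang II, and, in the knockout, 1.71 ± 1.37 in sham and 2.29 ± 2.64 under Ang II (SD, n = 3). In WT the log2 fold change was 3.68 (SE 0.50, 95% interval 2.50 to 4.87, adjusted p = 0.00603 by edgeR's quasi-likelihood test), and it stayed past the threshold in 6 of 6 fits that left out 1 library (3.39 to 4.28). In miR-214-/- it was 0.44 (95% interval -1.99 to 2.88, adjusted p = 0.883).

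The other AT1 receptor gene, Agtr1b, had at most 1 count in any library, and since reads shared by these closely related genes are dropped by unique counting, the level of Agtr1a is uncertain to that extent. Agtr2, which encodes the AT2 receptor, and Mrgprd had 0 counts in all 12 libraries. Mas1, the receptor for angiotensin-(1-7), had 0 to 6 counts.

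The 6 libraries with the most Agtr1a counts were also the 6 with the most counts of Epor, 1 of the 8 red-cell precursor markers. The 3 genes most like it over the 12 libraries, by Pearson correlation of log2 CPM among 12287 genes, were Pkhd1l1 (r = 0.99), Tinagl1 (r = 0.97) and Apol8 (r = 0.97), and within groups r was 0.96 to 0.98. Pkhd1l1, for example, had 35, 43 and 49 counts in WT sham and 360, 1035 and 793 in WT Ang II, and in the knockout it had 31, 288 and 227 counts in sham and 510, 147 and 51 under Ang II. The 6 highest libraries were the same, in the same order, as for Agtr1a. Both values of each point come from 1 library and share its cell mixture and depth, so these correlations are a description.

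Epor, the erythropoietin receptor, and Klf1, a transcription factor of red-cell precursors, showed the same spread. Epor counts were 61, 174 and 67 in WT sham, 406, 1405 and 1040 in WT Ang II, and in the knockout 79, 362 and 399 in sham and 867, 202 and 61 under Ang II. Per 100 Epor counts there were 15.2 to 23.9 Agtr1a counts in WT Ang II, and in the knockout 8.86 to 17.96 in sham and 11.5 to 17.3 under Ang II. In WT sham, where Agtr1a counts were lowest, the ratios were 9.84 (exact 95% interval 3.47 to 22.7), 5.17 (2.33 to 10.1) and 26.9 (15.02 to 45.8). The ratio therefore ranged 5.20-fold over the 12 libraries, against 31.1-fold for Agtr1a itself. Relative to Klf1 it ranged 4.96-fold.

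In WT, 3 of the 8 red-cell precursor markers rose with Ang II and 0 fell by edgeR's quasi-likelihood test, among them Epor (log2 fold change 3.11, adjusted p = 0.0137) and Klf1 (3.06, adjusted p = 0.0149). The 4 globin genes and Alas2 had log2 fold changes of 2.27 to 2.70 that did not pass. In miR-214-/- 0 of the 8 passed. There the markers parted, since Epor (0.38) and Klf1 (0.11) had small values, as Agtr1a did (0.44), while Alas2 (2.61), Hbb-bs (2.70), Hbb-bt (2.48), Hba-a1 (2.48) and Hba-a2 (3.00) had values about as large as in WT, with unadjusted p of 0.0268 to 0.0361 and adjusted p of 0.361 to 0.388 by edgeR. These large knockout values rest mainly on miR-214-/- Ang II replicate 2, where the summed list was 4330 CPM. It was 436 and 503 CPM in replicates 1 and 3, and 267 to 390 CPM in miR-214-/- sham. Hba-a2, for example, had a median of 22.1 and a highest level of 296 CPM under Ang II, against 10.8 to 15.9 CPM in sham. By fitted values Agtr1a was therefore alike to Epor and Klf1 but not to the red-cell list as a whole. In the knockout that contrast rests mainly on the 1 library. The summed red-cell list, which globins dominate, did not follow Agtr1a library by library, since WT Ang II replicate 1 had the highest sum (5127 CPM) and the lowest Agtr1a of its group. The part of red-cell precursors in the rise of Agtr1a was not tested, and in bulk T cell preparations more cells of a type and more RNA per cell cannot be told apart.

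**Figure D2:**
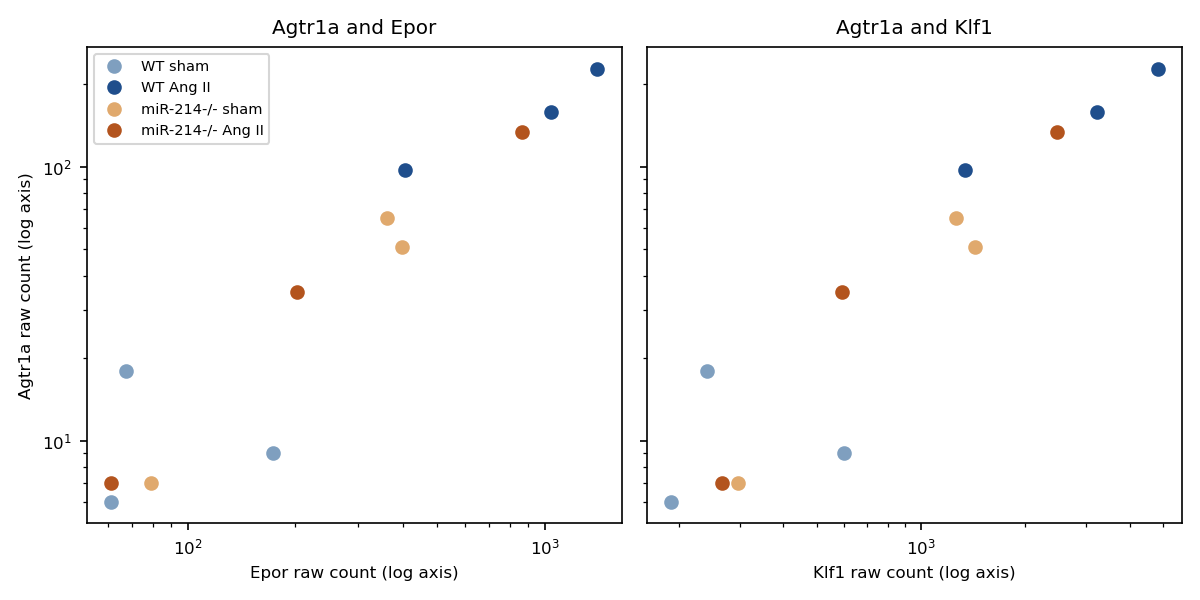
Raw Agtr1a counts (vertical, log axis) against raw Epor (left) and Klf1 counts (right, both log axes), with 1 point per library coloured by group. Points run from the bottom left (Agtr1a 6 counts, Epor 61) to the top right (Agtr1a 228 counts, Epor 1405). WT sham replicate 2 had the fewest Agtr1a counts relative to both genes, at 5.17 per 100 Epor and 1.505 per 100 Klf1 counts.

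Agtrap encodes a protein that binds the AT1 receptor and promotes its internalization (ENSMUSG00000029007, chr4:148077061-148088031, minus strand). Its raw counts were 698, 950 and 702 in WT sham and 1266, 870 and 761 in WT Ang II, and those groups overlapped. In the knockout they were 855, 862 and 981 in sham and 900, 1052 and 730 under Ang II. Mean levels were 33.3 ± 3.82 and 35.9 ± 7.45 CPM in WT, and 36.9 ± 2.74 and 35.1 ± 3.11 CPM in the knockout, for sham and Ang II respectively (SD, n = 3). The log2 fold change was 0.13 in WT (95% interval -0.26 to 0.52) and -0.06 in miR-214-/- (-0.30 to 0.18). The genes with the most similar pattern were Gm45104 (r = 0.88), Tcn2 (0.86), a vitamin B12 carrier, and Hexa (0.81), a lysosomal enzyme.

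Atp6ap2 encodes the (pro)renin receptor, which is also an accessory subunit of the vacuolar proton pump (ENSMUSG00000031007, chrX:12587801-12617049, plus strand). Its levels were 60.0, 58.1 and 57.3 CPM in WT sham and 68.2, 61.9 and 69.8 CPM in WT Ang II. The WT groups did not overlap, although replicate 2 under Ang II lay close to the sham libraries. In the knockout the levels were 68.1, 64.4 and 58.4 CPM in sham and 59.9, 74.3 and 71.0 CPM under Ang II, and they overlapped. The log2 fold change in WT was 0.21 (SE 0.08, adjusted p = 0.098 by edgeR's quasi-likelihood test), and in miR-214-/- it was 0.11 (95% interval -0.13 to 0.35). Gdi2 (r = 0.93), Slc10a7 (0.91) and Ovca2 (0.87) were most like it.

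Ace encodes angiotensin-converting enzyme, which makes Ang II and degrades bradykinin (ENSMUSG00000020681, chr11:105967945-105989964, plus strand). Raw counts were 244, 168 and 121 in sham and 293, 391 and 122 under Ang II in WT, and 158, 79 and 297 in sham and 161, 379 and 81 under Ang II in the knockout. Ace varied widely within each group, and no pair of groups was separated. Its log2 fold change with Ang II was 0.38 in WT, with a 95% interval of -0.54 to 1.30, and 0.18 in miR-214-/-, with an interval of -1.12 to 1.48. Nlrc4 (r = 0.85), an inflammasome sensor of myeloid cells, Ptpn14 (0.76) and Cyp4f18 (0.74) had the most similar pattern. The summed macrophage and monocyte list (8 genes) ordered the libraries as Ace did in WT sham, at 367, 333 and 147 CPM beside Ace levels of 10.6, 6.66 and 5.51 CPM, and in miR-214-/- Ang II, at 286, 363 and 229 CPM beside 6.35, 13.7 and 3.53 CPM. It did not in WT Ang II (944, 143 and 299 CPM beside 10.3, 13.9 and 5.16 CPM), where the highest Ace level was in the library with the lowest sum, nor in miR-214-/- sham (194, 308 and 377 CPM beside 6.56, 3.67 and 10.6 CPM). The part of these cells in the level of Ace was not tested.

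The upstream genes of the cascade were at or near the detection limit. Agt, the precursor of all angiotensins, had 0 to 5 counts per library, and Ren1, renin, had 0 to 17 counts with its highest value in WT Ang II replicate 1.

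Lnpep encodes insulin-regulated aminopeptidase, known also as the AT4 receptor (ENSMUSG00000023845, chr17:17521410-17625050, minus strand), and Enpep encodes aminopeptidase A, which converts Ang II to angiotensin III. Lnpep levels were 236, 208 and 245 CPM in WT sham and 191, 181 and 193 CPM in WT Ang II. The WT groups did not overlap. In miR-214-/- they were 214.3, 210 and 220 CPM in sham and 167, 198 and 245 CPM under Ang II, where 1 library lay above and 2 lay below the sham range. In WT the log2 fold change was -0.26 (SE 0.08, adjusted p = 0.059 by edgeR's quasi-likelihood test) and in miR-214-/- -0.08 (95% interval -0.39 to 0.24). Agfg1, Usp34 and Lats1 were most like Lnpep (r = 0.97, 0.96 and 0.95).

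Enpep (ENSMUSG00000028024, chr3:129269175-129332720, minus strand) was the only member at the detection limit. It had 3, 3 and 2 counts in sham and 7, 1 and 4 under Ang II in WT, and 0, 0 and 1 in sham and 3, 3 and 3 under Ang II in the knockout. Of the 12 libraries, 10 held 3 counts or fewer, and no fold change is given at this depth.

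Nr3c1 encodes the glucocorticoid receptor (ENSMUSG00000024431, chr18:39410545-39519421, minus strand). Its levels were 210, 199 and 206 CPM in WT sham and 191, 193 and 184 CPM in WT Ang II. In miR-214-/- they were 206, 214.1 and 218 CPM in sham and 165, 201 and 199 CPM under Ang II. In both genotypes every Ang II library was below every sham library, although the differences did not pass the test. The log2 fold change was -0.09 in WT (95% interval -0.22 to 0.04, adjusted p = 0.277) and -0.17 in miR-214-/- (-0.39 to 0.04, adjusted p = 0.480), both by edgeR's quasi-likelihood test. Rmnd5a (r = 0.96), Med13 (0.95) and Casd1 (0.94) were most like it.

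Nr3c2 encodes the mineralocorticoid receptor (ENSMUSG00000031618, chr8:76899442-77245012, plus strand) and was detected at a low level in each of the 12 libraries. Raw counts were 50, 44 and 68 in sham and 78, 64 and 56 under Ang II in WT, and 55, 54 and 43 in sham and 62, 72 and 59 under Ang II in the knockout. The WT groups overlapped, as did the knockout groups on the CPM scale. Per kilobase its level in WT sham was 0.361 ± 0.106 CPM against 26.7 ± 0.667 CPM for Nr3c1 (SD, n = 3). The log2 fold change with Ang II was 0.10 in WT (95% interval -0.51 to 0.71) and 0.28 in miR-214-/- (-0.29 to 0.85). The data leave room for changes of any size within these intervals. Tnfrsf18 (r = 0.82), Galk1 (0.82) and Keap1 (0.82) were most like it.

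Hsd11b1 encodes the type 1 11-beta-hydroxysteroid dehydrogenase, which regenerates active glucocorticoid inside cells (ENSMUSG00000016194, chr1:193221634-193264075, minus strand). Its levels were 81.0, 71.3 and 85.1 CPM in WT sham and 72.1, 48.7 and 49.6 CPM in WT Ang II. The WT groups overlapped through replicate 1 of WT Ang II. In miR-214-/- they were 69.4, 40.5 and 55.7 CPM in sham and 53.7, 89.9 and 85.5 CPM under Ang II. The knockout groups also overlapped, with 2 of 3 Ang II libraries above all sham libraries. The log2 fold change was -0.45 in WT (SE 0.16, adjusted p = 0.095) and 0.47 in miR-214-/- (SE 0.25, adjusted p = 0.476), by edgeR's quasi-likelihood test. Without WT Ang II replicate 1, which had the highest summed red-cell precursor (5127 CPM), neutrophil (2364 CPM) and macrophage and monocyte markers (944 CPM) of the 12 libraries, the WT value was -0.67 with an adjusted p of 0.00443. Of the 6 fits that left out 1 library, only 1 passed, with values of -0.67 to -0.36 and adjusted p up to 0.251 by edgeR.

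Cotl1 (r = 0.96), Rac2 (0.95) and Cap1 (0.95) were most like Hsd11b1 over the 12 libraries. Hsd11b2, which inactivates glucocorticoid and is the opposing enzyme, had 4 to 36 counts, with its highest count in WT Ang II replicate 2. H6pd, which supplies the cofactor that Hsd11b1 needs, had log2 fold changes of -0.08 in WT and 0.24 in miR-214-/-.

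T cell markers themselves were lower in WT Ang II. Of the 8, 6 fell by the same test (for example Cd3e, log2 fold change -0.48, adjusted p = 0.0137, edgeR), 0 rose, and their sum was 3229 to 3717 CPM in WT sham and 2163 to 2623 CPM in WT Ang II. Relative to 1000 T cell marker counts, Hsd11b1 was at 22.8 ± 2.25 in WT sham and 23.4 ± 3.81 in WT Ang II, and Lnpep at 66.3 ± 6.58 and 78.7 ± 9.05 (SD, n = 3). On that scale the WT groups of both genes overlapped, as did those of Ace and Enpep, and the other 5 members were higher in every WT Ang II library. Agtrap (log2 ratio of means 0.62) and Nr3c2 (0.61), whose WT groups overlapped in CPM, were separated on this scale, and Agtr1a (4.25) and Atp6ap2 (0.72) were separated on both. Nr3c1 stood at 59.3 ± 4.94 and 79.0 ± 6.15, so its direction in WT turned with the scale. In miR-214-/- the groups of Nr3c1 then overlapped, while Atp6ap2 (0.13) and Hsd11b1 (0.47) were higher in every Ang II library. A lower marker sum raises every gene on this scale, and no share over all genes was computed for it. The part of the cell mixture in the WT values of these genes was not tested.

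In miR-214-/- T cells 0 of 8 tested members passed for Ang II against sham by edgeR's quasi-likelihood test, beside 0% of 15937 genes. No member had an unadjusted p under 0.05, beside 12.2% of all genes tested, and DESeq2 called 0 members as well. The groups did not overlap for 1 of 8, Nr3c1, against 19.6% of all genes tested. Whether the response differed by genotype was asked with the interaction of Ang II and genotype over all 12 libraries, in which 0 of 8 members passed beside 0.00596% of 16770 genes, and DESeq2 also called 0. Only Hsd11b1 and Agtr1a had an unadjusted p under 0.05 there, 2 of 8 members beside 14.8% of all genes tested. Hsd11b1 had an interaction of 0.95 on the log2 scale (SE 0.33, adjusted p = 0.255, edgeR) and Agtr1a one of -3.23 (SE 1.31, adjusted p = 0.298, edgeR), where a negative value means a smaller change in miR-214-/-. Without miR-214-/- Ang II replicate 1, the library of its group with the most Agtr1a and the least Hsd11b1, both passed (1.15 with adjusted p = 0.0474 and -4.75 with adjusted p = 0.0455). Each of these 2 genes passed in only 1 of the 12 fits that left out 1 library. Without the 2 libraries rich in B cell genes neither passed (0.79 and -2.65, adjusted p = 0.573 and 0.603).

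**Figure D3:**
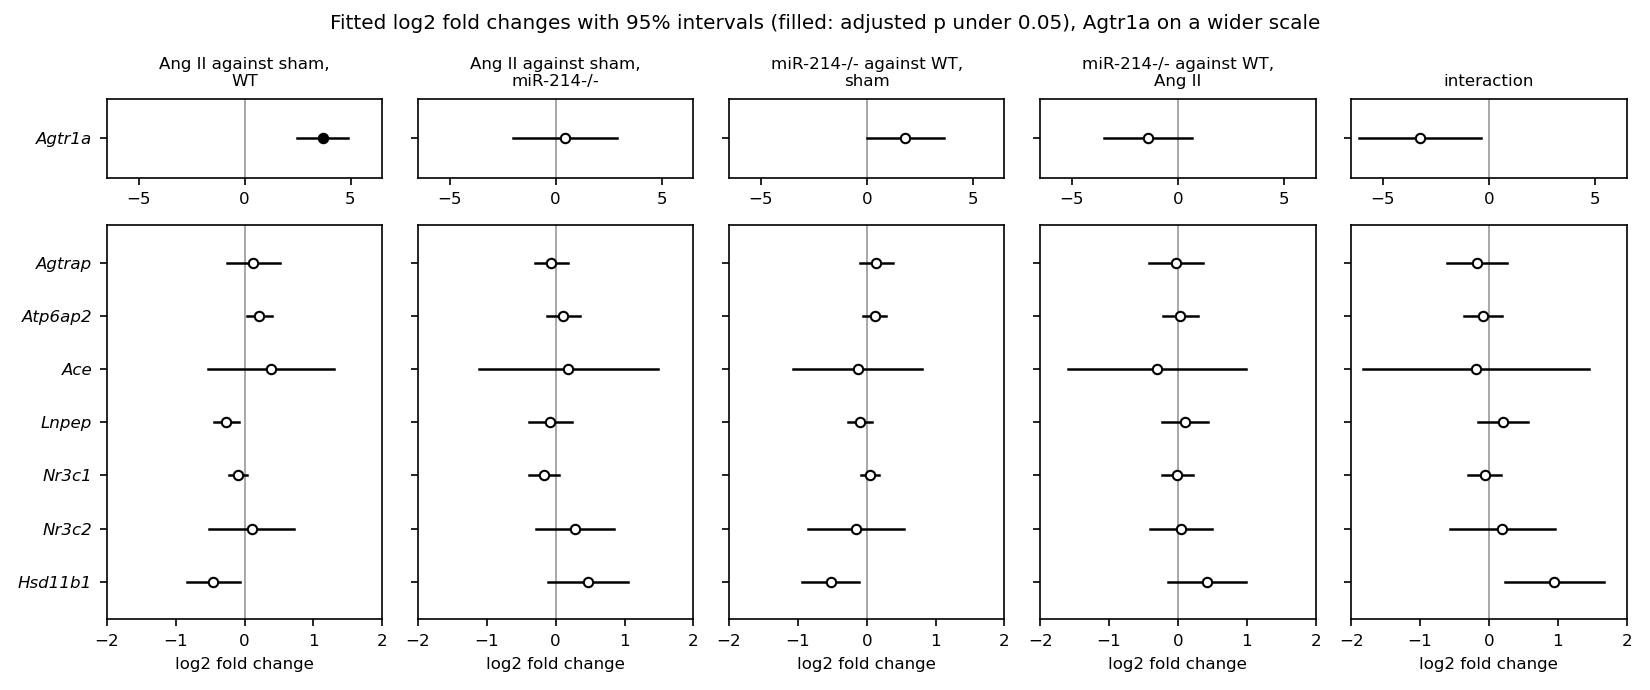
Fitted log2 fold changes (horizontal axes) of the 8 tested members with 95% intervals in the 4 pairwise comparisons and the interaction, with Agtr1a in the upper row on a wider axis. The filled point, Agtr1a in WT (3.68), is the single value with an adjusted p under 0.05, and the intervals of Ace and Agtr1a are the widest.

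For miR-214-/- against WT, 0 of 8 members passed in sham, beside 0.0251% of 15913 genes, and 0 of 8 under Ang II, beside 0% of 16215 genes, by edgeR's quasi-likelihood test. In sham 1 of 8 members had an unadjusted p under 0.05, beside 6.67% of all genes tested. Under Ang II 0 of 8 did, beside 8.56%, and DESeq2 called 0 in both. In sham the groups did not overlap for 1 of 8, Hsd11b1, beside 10.3% of all genes, and under Ang II for 0 of 8, beside 14.6%. Hsd11b1 was lower in miR-214-/- sham by -0.52 on the log2 scale (unadjusted p = 0.0195, adjusted p = 0.701, edgeR). Agtr1a had the largest fitted difference in sham, 1.83 (95% interval -0.0016 to 3.66, adjusted p = 0.749, edgeR), and 2 of its 3 knockout libraries were above all WT sham libraries. Those 2 libraries also held more Epor (362 and 399 counts) than any WT sham library.

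The 4 members with a miR-214-3p seed match in the 3′ UTR had fitted differences between miR-214-/- and WT in sham of 0.14 for Agtrap (95% interval -0.10 to 0.38), -0.13 for Ace (-1.07 to 0.80), -0.10 for Lnpep (-0.28 to 0.07) and 0.05 for Nr3c1 (-0.09 to 0.18). Agtrap and Nr3c1 were above 0, and Ace and Lnpep below. Under Ang II they were -0.03 (-0.42 to 0.36), -0.31 (-1.60 to 0.99), 0.11 (-0.22 to 0.44) and -0.01 (-0.23 to 0.21). For Agtrap, Lnpep and Nr3c1 the sham intervals leave room for increases of at most 0.38 on the log2 scale. Those under Ang II leave room for at most 0.44, and for Ace both intervals were wider.

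Among other angiotensin genes (24 listed, 16 tested), 9 rose and 0 fell with Ang II in WT, beside 11.7% of all genes that rose and 7.06% that fell, and the median log2 fold change was 0.40 against -0.02 for all genes tested. Ctsg, cathepsin G, a neutrophil protease that can release Ang II, had the largest value. It stood at 4.75 ± 1.01 CPM in WT sham and 40.0 ± 10.4 CPM in WT Ang II (log2 fold change 3.09, adjusted p = 0.0013, edgeR). Prcp, a carboxypeptidase that degrades Ang II, rose from 30.4 ± 3.24 to 54.5 ± 1.05 CPM (0.86, adjusted p = 0.00359), and Arrb1, beta-arrestin 1, which uncouples the AT1 receptor, from 135 ± 3.83 to 212 ± 30.9 CPM (0.67, adjusted p = 0.00854). The other 6 were Prep, Nln, Rnpep, Gnaq, Thop1 and Anpep, of which 5 encode peptidases and Gnaq a G protein subunit, and they were named after their values were seen. Markers of several other cell types rose in WT as well, with 3 of 8 red-cell precursor, 2 of 5 dendritic cell and 2 of 4 megakaryocyte and platelet markers called. No macrophage and monocyte or B cell marker was called. All 6 neutrophil markers rose in WT, from a sum of 149 to 199 CPM to one of 855 to 2364 CPM. In miR-214-/- their median log2 fold change was 1.43 with 0 of 6 called, while that of the angiotensin list was 0.12. The part of these cell types in the values of Ctsg and the others was not tested.

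In miR-214-/- 0 of the 16 passed (median 0.12), nor did any in the interaction, where the median was -0.35 against 0.01 for all genes. The smallest unadjusted p values there were again of Ctsg (-2.04, adjusted p = 0.213), Prcp (-0.57, 0.216) and Arrb1 (-0.60, 0.220), from edgeR. Ctsg in the knockout was at 15.8 ± 6.08 CPM in sham and 32.3 ± 16.6 CPM under Ang II, and the sham levels differed between genotypes by 1.73 on the log2 scale (adjusted p = 0.701, edgeR).

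V-ATPase subunits, the pump partners of Atp6ap2, gave 2 genes that rose and 1 that fell among 17 tested in WT, with a median of 0.16. These 3 of 17 are near the 18.8% called among all genes. Atp6v0a1 rose (1.76, adjusted p = 0.00588), Atp6v1a rose (0.58, 0.0257) and Atp6v1d fell (-0.36, 0.0081), by edgeR. None passed in miR-214-/- (median 0.10) or in the interaction, where Atp6v0a1 (-1.36), Atp6v0b (-0.37) and Atp6v1f (0.31) had the smallest p values.

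Glucocorticoid-responsive genes did not move in 1 direction in WT. Of 22 tested, 4 rose, beside 11.7% of all genes, and 3 fell, beside 7.06%, and the median was -0.0025. Cdkn1a, a cell-cycle inhibitor, rose from 2.63 ± 0.435 to 6.63 ± 1.62 CPM (1.35, adjusted p = 0.0145), the metallothionein gene Mt1 rose (2.38, 0.0266) and Klf13 fell (-0.35, 0.0238), by edgeR. The others that passed were Mt2 (3.05) and Klf9 (0.79), which rose, and Il7r (-0.52) and Sgk1 (-0.54), a kinase induced by both corticosteroid receptors, which fell. Fkbp5 and Tsc22d3, classical targets of the glucocorticoid receptor, had WT values of 0.13 and 0.20 that did not pass. These 6 were named after their values were seen. In miR-214-/- 0 of 22 passed (median -0.21). In the interaction the median was -0.39, and Cdkn1a (-1.18, adjusted p = 0.213), Per1 (-0.57, 0.213) and Cxcr4 (-0.84, 0.228) came nearest to the threshold by edgeR.

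Receptor chaperones and coregulators (18 tested) included 1 gene that rose and 3 that fell in WT, beside 11.7% and 7.06% of all genes, with a median of -0.13 against -0.02. The 3 were the coactivators Crebbp (-0.46, adjusted p = 0.0117), Ncoa2 (-0.34, 0.0155) and Ncoa3 (-0.33, 0.0216), by edgeR. Bag1, a cochaperone named after its value was seen, rose (0.41, 0.0244). None passed in miR-214-/- (median -0.20), where Crebbp was at -0.42. There 3 of 18 genes had values above 0, beside 54.6% of all genes tested, whose median was 0.03. The smallest interaction p values were of the chaperone genes Stip1 (-0.62), Hsp90aa1 (-0.68) and Fkbp4 (-0.43), which did not pass.

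Of other steroid receptors and steroid enzymes, 14 of 20 in the table were tested in WT. Of these, 1 rose and 1 fell, beside 18.8% of all genes called in either direction, and the median was 0.03. Srd5a1, steroid 5-alpha-reductase, rose from 0.456 ± 0.131 to 1.14 ± 0.188 CPM (1.34, adjusted p = 0.0328, edgeR). Hsd17b4 (0.23) did not pass. None of 15 passed in miR-214-/- (median 0.10) or in the interaction, where Hsd11b2 (-2.37) and H6pd (0.34) were among the 3 genes with the smallest p. Cyp11b1 and Cyp11b2, the enzymes of the last steps of corticosterone and aldosterone synthesis, had 0 counts in every library. For miR-214-/- against WT, 0 genes of these 5 lists passed in sham or under Ang II.

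**Figure D4:**
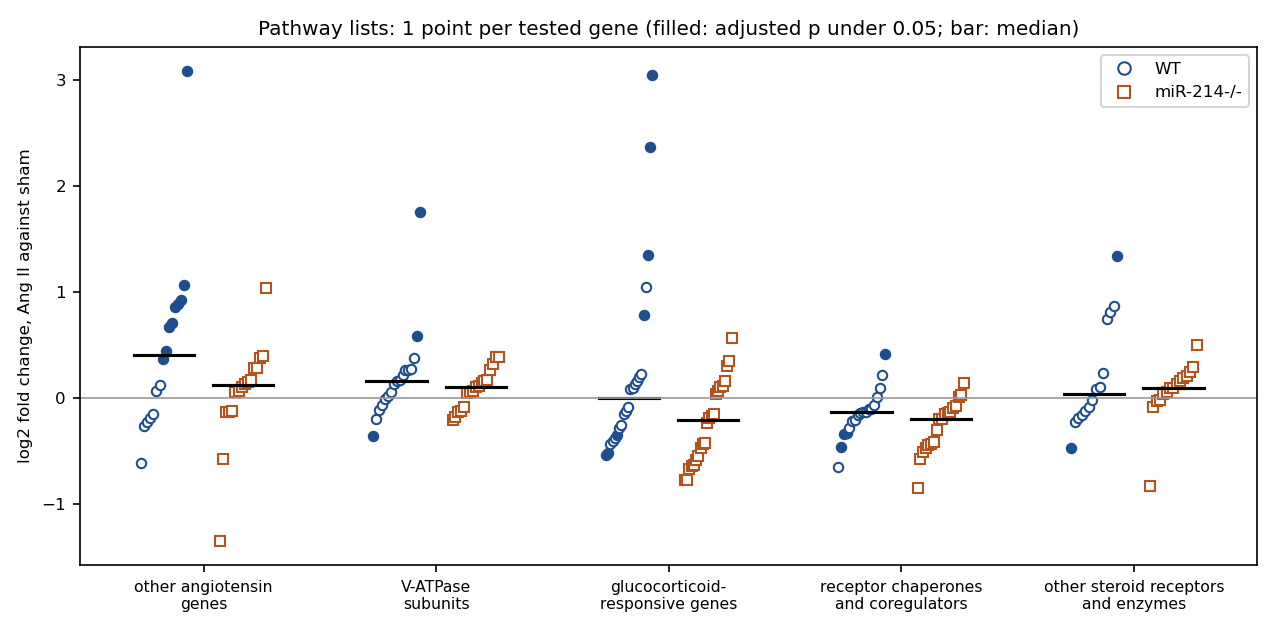
Log2 fold change with Ang II (vertical axis) of each tested gene in the 5 pathway lists, with circles for WT and squares for miR-214-/-, filled where the adjusted p was under 0.05 and with a bar at the median. Filled symbols occur in WT only, 9 of them among 16 other angiotensin genes, and the WT median of that list is 0.40.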

How the data were processed

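RNASeq libraries of splenic T cells (polyA stranded libraries, paired reads) were trimmed, aligned to GRCm38 with STAR and counted with featureCounts of Subread 1.5.2 as uniquely mapped exonic reads per gene by the authors, who deposited raw counts. The annotation release and the strand setting of the counting are not given in the sources used here. Of the 49315 identifiers, 48970 were matched to symbols. Exons of Ace and Nr3c2 overlap opposite-strand genes with at most 5 counts in all.

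Counts were tested with edgeR 4.0.16 (filterByExpr, TMM, quasi-likelihood, two-sided, Benjamini-Hochberg over all genes tested, R 4.3.3), each comparison on its 6 libraries and the interaction on all 12. With 3 mice per group an exact permutation test cannot go below p = 0.1. Members passed at an adjusted p under 0.05. The tests were checked on simulated data. DESeq2 1.42.0, other scalings, filters and fits, the replicate number as a block and leaving out each library were alternatives. Members and gene lists were chosen with earlier results of these data known. All 9 members were named, with the 3 genes of each list smallest in unadjusted p (WT Ang II, interaction) and the 3 most correlated with each member (mean log2 CPM above 1, prior count 2). No replicate pair was identical. Sts was not matched in the table. A few listed genes are not reported here.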

Additional observations from a re-analysis of the deposited data

How the results depend on the processing

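Of the counts of members past the test, 5 alternatives moved a value. In WT, DESeq2 called 2 (Agtr1a and Hsd11b1), the replicate block 2 (Agtr1a and Lnpep) and a minimum of 10 counts in every library 0, since Agtr1a is left out by construction. Leaving out 1 library gave 1 to 2 in WT (2 without WT Ang II replicate 1) and 0 to 2 in the interaction (2 without miR-214-/- Ang II replicate 1). Elsewhere the count stayed at 0. The shares of all genes given above are those of the main edgeR fits and do not stand for DESeq2 or the other alternatives. Same-numbered libraries did not deviate together (correlations -0.68 to 0.34), so replicate numbers were not taken as pairs, and beyond Lnpep in WT the block changed no member's call. Under the block Agtr1a in miR-214-/- turned to -0.21, and by library size alone Atp6ap2 in miR-214-/- against WT under Ang II turned to -0.0088. The cause was not tested for any of these except the filter. Leaving out libraries in turn changed the sign of 18 member values, none of them called: with Ang II in WT, Agtrap (-0.059 to 0.23) and Nr3c2 (-0.071 to 0.34); with Ang II in miR-214-/-, Ace (-0.49 to 0.62), Agtr1a (-1.08 to 1.11) and Lnpep (-0.24 to 0.043); between genotypes in sham, Ace (-0.57 to 0.20) and Nr3c2 (-0.33 to 0.094). Between genotypes under Ang II these were Ace (-0.97 to 0.046), Agtrap (-0.13 to 0.17), Atp6ap2 (-0.025 to 0.12), Lnpep (-0.042 to 0.23), Nr3c1 (-0.057 to 0.075) and Nr3c2 (-0.018 to 0.14). In the interaction they were Ace (-0.86 to 0.26), Agtrap (-0.27 to 0.0083), Atp6ap2 (-0.15 to 0.0027), Nr3c1 (-0.12 to 0.023) and Nr3c2 (-0.061 to 0.37). Of the member values, 608 kept direction and side of the threshold. The fit without the 2 libraries rich in B cell genes was chosen after seeing the data.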
